A study of Mus musculus with 20 samples.

Results

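The 10 genes of ovulation and cumulus expansion, the swelling of the cell layer around the oocyte, were followed across the ovarian antral follicles of 20 mice. They were taken by symbol from the table of estimated counts and are Ptgs2 (Entrez gene 19225), Has2 (15117), Ptx3 (19288), Tnfaip6 (21930), Areg (11839), Ereg (13874), Btc (12223), Adamts1 (11504), Pgr (18667) and Edn2 (13615). All 10 were among the 39253 genes of the table, and all 10 passed the filter on low counts that left 17810 genes for testing.

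The mice were CD-1 females, an outbred laboratory stock, which from 40 days of age drank for 35 days either water with iodoacetic acid (IAA), at 10 or at 500 mg/L, or plain water, and were 75 days old at collection. Iodoacetic acid is a disinfection by-product of chlorinated water that contains iodide. 5 mice received 10 mg/L in experiment 2, beside 5 controls on water alone. 5 mice received 500 mg/L in experiment 1, beside 5 other controls. All were killed in diestrus, the quiet stage of the estrous cycle, and each library pooled the 30 to 40 follicles of 220 to 400 µm dissected from 1 mouse, so the replicate is the mouse. The depth was 39.9 M to 67.5 M estimated counts a library. Defining markers of the follicle were present: Inha, a hormone subunit of granulosa cells, averaged 5396 CPM in mice given 10 mg/L and 4999 CPM in controls of experiment 2, and 5674 CPM in mice given 500 mg/L and 5848 CPM in controls of experiment 1. CPM are counts scaled to a common library size.

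Before ovulation, luteinizing hormone acts on the mural granulosa cells that line the follicle, which then release the EGF-like ligands amphiregulin, epiregulin and betacellulin. These activate the EGF receptor on neighbouring granulosa and cumulus cells, which in response make prostaglandins and a hyaluronan matrix that spreads the cumulus cells apart. The progesterone receptor, the protease ADAMTS1 and endothelin 2 act on the follicle wall and its rupture. In mice most of these genes are transcribed in a short burst after the hormone surge and are low in follicles that have not met it.

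Promoters are shown for Ptgs2, Ptx3 and Adamts1, the genes with the highest pairwise correlations between mice, and for Areg, the 1 member with a full cyclic AMP response element. RefSeq promoters on GRCm38.p6 were found for 8 of the 10 genes, all but Has2 and Ereg. Each line gives the 180 bases before the transcription start, 5′ to 3′, and capitals mark the motifs searched on both strands from 250 bases before to 50 after the start. These lie at chr1:150099851-150100030 (plus strand), chr3:66219707-66219886 (plus strand), chr16:85803114-85803293 (minus strand) and chr5:91139419-91139598 (plus strand).
Ptgs2: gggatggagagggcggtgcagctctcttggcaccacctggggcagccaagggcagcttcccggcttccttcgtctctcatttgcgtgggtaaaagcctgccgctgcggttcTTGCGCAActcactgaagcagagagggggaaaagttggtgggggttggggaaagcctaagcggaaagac
Ptx3: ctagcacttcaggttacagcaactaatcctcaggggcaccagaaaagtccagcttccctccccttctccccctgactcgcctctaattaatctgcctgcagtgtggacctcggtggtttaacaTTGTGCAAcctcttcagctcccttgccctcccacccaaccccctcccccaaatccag
Adamts1: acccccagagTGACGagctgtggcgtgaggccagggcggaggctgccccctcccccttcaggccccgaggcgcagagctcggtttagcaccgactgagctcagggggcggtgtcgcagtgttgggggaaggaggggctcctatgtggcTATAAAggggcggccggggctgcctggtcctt
Areg: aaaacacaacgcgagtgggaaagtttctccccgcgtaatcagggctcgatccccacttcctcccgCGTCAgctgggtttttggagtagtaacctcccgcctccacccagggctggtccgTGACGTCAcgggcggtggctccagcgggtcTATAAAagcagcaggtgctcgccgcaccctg
Ptgs2 after the start: caccactaCGTCACGTGgagtccg
The full cyclic AMP response element (TGACGTCA) lies 61 bases before the start of Areg and in 1.79% of 32851 promoters. Its core (TGACG) is in Ptgs2, Areg, Btc and Adamts1, 170 bases before the start in Adamts1, and in 20.8% of promoters. A C/EBP-type site (TTGCNNAA) is in Ptgs2, 69 bases before the start, and in Ptx3, 57 bases before it, and in 10.8% of promoters. The last line, chr1:150100036-150100059 on the plus strand, holds this core and an E-box (CACGTG, in 7.15% of promoters) that share bases. TATAAA, the letters of the TATA box, stands 32 bases before the start of Adamts1 and 31 before that of Areg. On either strand these letters are in the windows of 3 of the 8 genes and 13.6% of all promoters. The third gene is Pgr, where they lie 212 bases before the start on the opposite strand. The AP-1 site TGANTCA is in the window of Tnfaip6 and in 7.81% of promoters.

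Adamts1 stood far above the other genes, and the rest were low in follicles of every group. On the scale of CPM per kilobase of the longest coding transcript in GENCODE M21, Adamts1 averaged 10.2 ± 3.67 (SD, n = 20) and lay above the next gene, Ptx3, in 20 of 20 mice. Ptx3 averaged 1.16 ± 0.398, Btc 0.850 ± 0.157, Edn2 0.793 ± 1.36 and Tnfaip6 0.689 ± 0.181 on the same scale. Ereg at 0.354 ± 0.211, Pgr at 0.288 ± 0.0902, Has2 at 0.259 ± 0.150, Ptgs2 at 0.164 ± 0.149 and Areg at 0.105 ± 0.0956 CPM per kilobase followed (SD, n = 20). Neighbours in this order overlapped: Ptx3 exceeded Btc in 13 of 20 mice, Ereg exceeded Pgr in 10 of 20, and Edn2 exceeded Tnfaip6 in 5 of 20, since its mean rests on few mice and its median was 0.307. At these levels the estimated counts behind a value were small for some genes, with medians over the mice of 4.92 for Areg, 21.4 for Edn2 and 25.5 for Ptgs2, against 2147 for Adamts1.

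**Figure D1:**
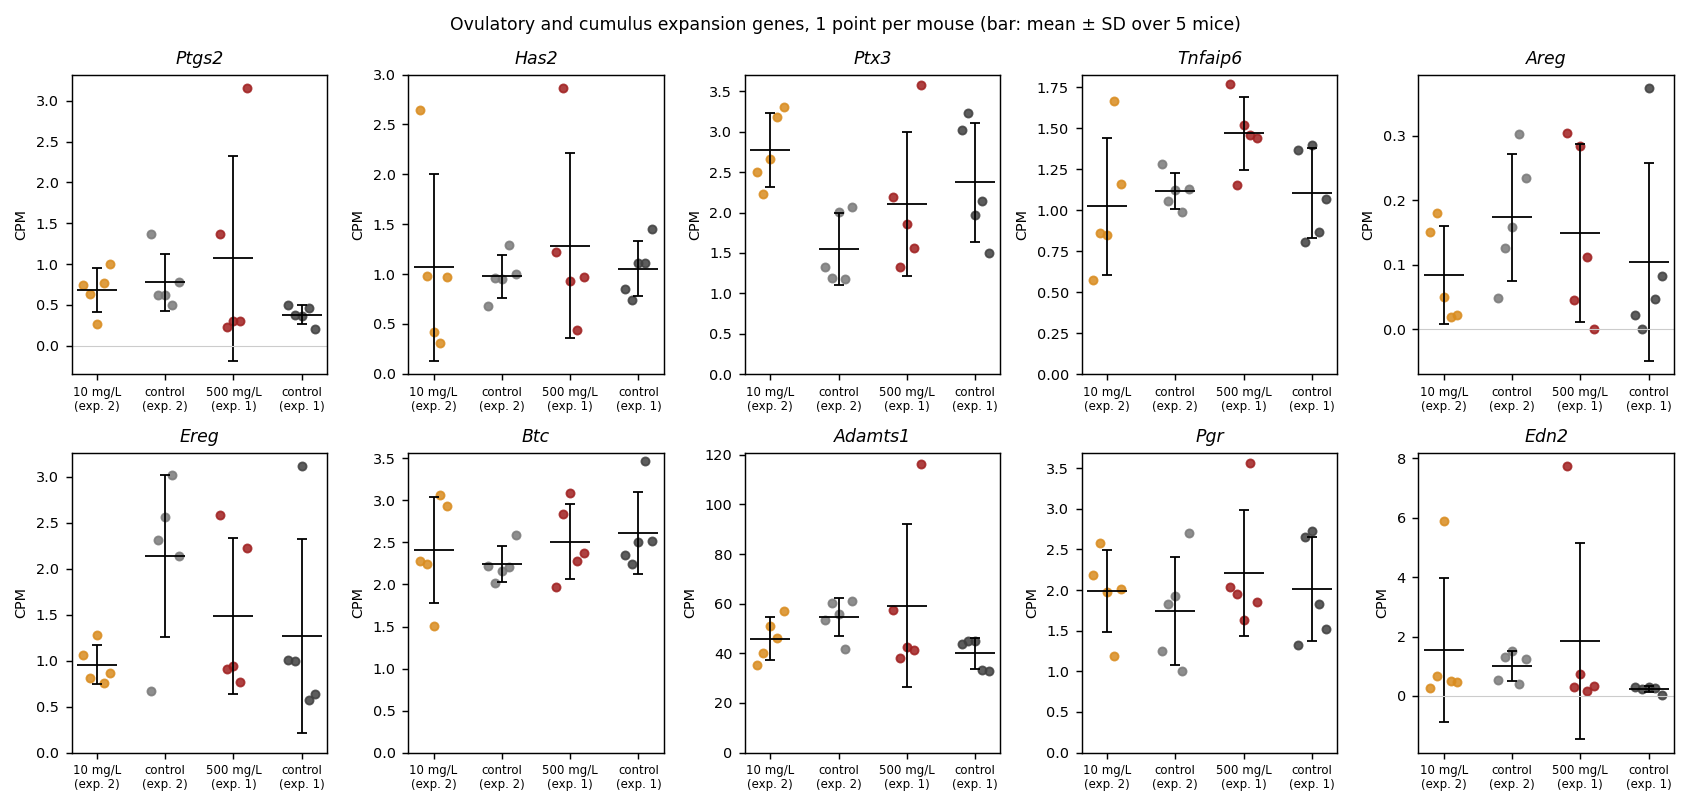
CPM of each of the 10 genes (y axis, linear, own scale per gene) in every mouse, in the order 10 mg/L, its controls (experiment 2), 500 mg/L and its controls (experiment 1), with a line at the mean and a bar of 1 SD over 5 mice. Single mice carry the means of Edn2, Ptgs2 and Adamts1 at 500 mg/L, with values of 7.73, 3.15 and 116 CPM, and the points of Ptx3 at 10 mg/L all lie above those of its controls.

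None of the 10 genes passed in any comparison by edgeR at a Benjamini-Hochberg adjusted p of 0.05. In the study's main comparisons, against the 10 controls of both experiments, 0 of 10 members were called at 10 mg/L, where 0.00561% of all tested genes were, and 0 of 10 at 500 mg/L, where 0.0112% were. At an unadjusted p under 0.05 the counts were 0 of 10 members at both doses, against 6.22% and 8.69% of all tested genes; DESeq2 gave 2 of 10 at 10 mg/L and 1 of 10 at 500 mg/L, and leaving out any 1 mouse gave 0 to 1 and 0 to 2 by edgeR. No member's exposed and control mice were free of overlap in these comparisons, as was true of 0.0955% of tested genes at 10 mg/L and 0.331% at 500 mg/L. The median log2 change of the 10 genes was 0.04 at 10 mg/L and 0.28 at 500 mg/L, with 5 and 9 of the 10 positive, while the median over all tested genes was 0.00 at both doses. Both doses share these controls, so the 2 sets of values are not independent.

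Compared with own controls, those of the same experiment, each dose again gave 0 of 10 calls, as for 0% of all tested genes at 10 mg/L and 0% at 500 mg/L. At 10 mg/L, 2 of 10 members had an unadjusted p under 0.05 by edgeR, Ptx3 higher and Ereg lower, against 6.45% of tested genes. In mice given 500 mg/L, 3 of 10 did, Ptgs2, Adamts1 and Edn2, all higher, against 5.19% of tested genes, or 2.73% higher ones. That count was 1 without replicate 5 at 500 mg/L or control replicate 10, and the count at 10 mg/L was 1 without control replicate 4. Exposed and own control mice did not overlap in 1 of 10 members at 10 mg/L (1.04% of tested genes, 0.5% with exposed mice higher) and in 0 of 10 at 500 mg/L (0.932%). The controls of experiment 2 and those of experiment 1 also differed from each other: 28 genes were called between them (0.157% of tested genes), none of them a member, and 1 of 10 members, Ptx3, had an unadjusted p under 0.05 (9.78% of tested genes), a count of 0 to 3 when any 1 mouse was left out. Since each dose was given in 1 experiment only, a difference between doses and one between experiments cannot be told apart in these data. In whole follicles, fewer cells of a type and less RNA per cell cannot be told apart either.

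**Figure D2:**
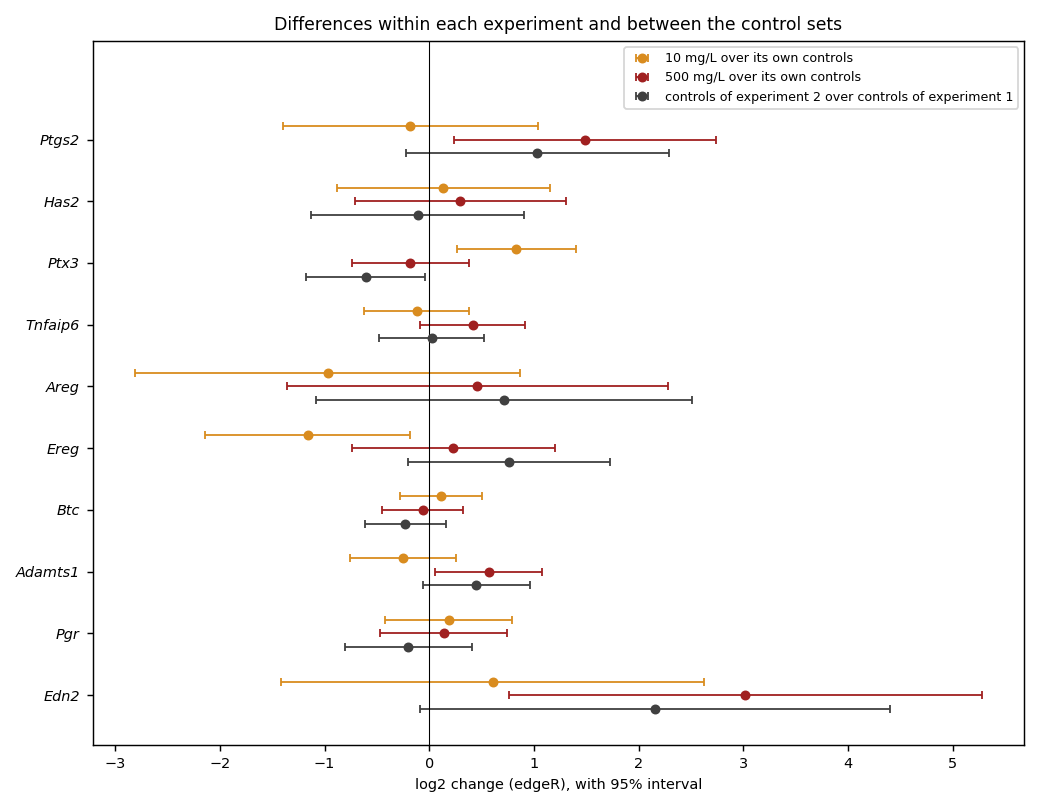
Log2 change by edgeR (x axis) of each gene (y axis) with its 95% interval, for 10 mg/L over its own controls, 500 mg/L over its own controls and the controls of experiment 2 over those of experiment 1. Intervals off 0 belong to Ptx3 and Ereg at 10 mg/L, to Ptgs2, Adamts1 and Edn2 at 500 mg/L and to Ptx3 between the control sets, and none of these passed after adjustment.

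The EGF-like ligands were low in every group, and the estimate for Ereg, the gene for epiregulin, was below its own controls at 10 mg/L without passing. Ereg had 1.06, 0.811, 1.28, 0.761 and 0.865 CPM in mice given 10 mg/L, against 0.675, 2.32, 2.57, 3.02 and 2.14 CPM in controls of experiment 2. All 5 exposed mice were under the median of these controls, but control replicate 1 was the lowest of the 10 mice, so the groups overlapped. The log2 change was −1.16 (SE 0.47; unadjusted p = 0.0224, edgeR Benjamini-Hochberg adjusted p = 0.751), and it stayed between −1.38 and −0.999 when any 1 mouse was left out. Mice given 500 mg/L had 2.59, 0.914, 0.945, 0.766 and 2.23 CPM of Ereg, against 1.01, 0.993, 3.12, 0.567 and 0.641 CPM in controls of experiment 1. Here 2 exposed mice and 1 control were high and the rest lay between 0.567 and 1.01 CPM, with a log2 change of 0.23 (SE 0.46). Leaving out control replicate 8 made it 0.89, and leaving out replicate 1 at 500 mg/L made it −0.07. The controls of experiment 2 averaged 2.14 CPM and those of experiment 1 averaged 1.26 CPM. Their log2 difference was 0.76 (SE 0.46, unadjusted p = 0.114, edgeR adjusted p = 0.624), and 1.43 without control replicate 8. The mice given 10 mg/L, at 0.761 to 1.28 CPM, overlapped the controls of experiment 1, at 0.567 to 3.12 CPM. Against all controls the change at 10 mg/L was −0.83 (SE 0.43, adjusted p = 0.815 by edgeR). The effect at 500 mg/L minus that at 10 mg/L was 1.39 (SE 0.66; edgeR unadjusted p = 0.0470, adjusted p = 0.914), and 2.05 without control replicate 8. In that difference of effects 3 of 10 members had an unadjusted p under 0.05, against 5.41% of tested genes, and 0 of 10 were called, as for 0% of them. The count of 3 was 1 without replicate 1 at 10 mg/L, replicate 5 at 500 mg/L or control replicate 10, and 1 with limma-voom.

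Areg, the gene for amphiregulin, was at the edge of detection. It had 0.150, 0.180, 0.0498, 0.0195 and 0.0214 CPM at 10 mg/L, against 0.0481, 0.125, 0.158, 0.302 and 0.235 CPM in controls of experiment 2, with a log2 change of −0.97 (95% interval −2.81 to 0.87). Mice given 500 mg/L had 0.303, 0.0457, 0.283, 0.112 and 0 CPM, against 0.0221, 0, 0.373, 0.0465 and 0.0818 CPM in controls of experiment 1. The count of 0 in replicate 5 at 500 mg/L allows up to 0.0683 CPM and that in control replicate 7 up to 0.0651 CPM, by a limit of 3 counts that covers counting error only. The groups overlapped at both doses, and the difference at 500 mg/L, 0.46, was 0.0035 without replicate 1 and 0.76 without replicate 5, so no difference in Areg was detectable at this depth.

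Btc, the gene for betacellulin, was the steadiest of the 10. Its means were 2.41 ± 0.628 CPM at 10 mg/L and 2.24 ± 0.213 CPM in controls of experiment 2, and 2.51 ± 0.445 CPM at 500 mg/L and 2.62 ± 0.490 CPM in controls of experiment 1 (SD, n = 5 each). The 95% intervals of its log2 change ran from −0.28 to 0.50 at 10 mg/L and from −0.45 to 0.32 at 500 mg/L against own controls. Its SD between mice within a set, 0.27 on the log2 scale, was at the percentile 14.4 of the 500 tested genes nearest to it in level. The receptor of these ligands, Egfr, stood at 0.05 and 0.06 on the log2 scale at 10 and 500 mg/L against own controls, and the sheddase gene Adam17, whose product frees such ligands from the cell surface, stood at −0.13 and 0.10. Of the 12 tested genes of the list of other EGF-like ligands, receptors and sheddases, 0 passed at either dose, with medians of 0.02 and 0.06.

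Ptgs2 encodes cyclooxygenase 2, the inducible enzyme of prostaglandin synthesis that mouse follicles need for ovulation. Mice given 500 mg/L had 1.37, 0.235, 0.301, 0.309 and 3.15 CPM, against 0.503, 0.374, 0.362, 0.458 and 0.207 CPM in controls of experiment 1. Replicates 1 and 5 lay above every control and the other 3 exposed mice within the control range. The log2 change was 1.49 (SE 0.60; unadjusted p = 0.0227, edgeR adjusted p = 0.954), and without replicate 5 it was 0.52. Against all controls it was 0.88, and −0.08 without that mouse. At 10 mg/L the values were 0.742, 0.632, 0.273, 0.764 and 1.01 CPM, against 1.37, 0.625, 0.617, 0.496 and 0.785 CPM in controls of experiment 2, and the groups overlapped (log2 change −0.18, 95% interval −1.40 to 1.04). Controls averaged 0.779 CPM in experiment 2 and 0.381 CPM in experiment 1, a log2 difference of 1.03 (SE 0.60, unadjusted p = 0.102, edgeR adjusted p = 0.609). None of the pathway's other genes passed. Ptgs1, the constitutive cyclooxygenase, stood at 0.13 (SE 0.16) and the prostaglandin E synthase gene Ptges at −0.13 (SE 0.23) at 500 mg/L, and of the 13 tested genes of prostaglandin synthesis, transport and response 0 passed at either dose. Their log2 changes ran from −0.33 to 1.85 at 10 mg/L, with a median of 0.03 and 3 of 13 at an unadjusted p under 0.05 by edgeR, 2 of these higher. They ran from −0.97 to 0.36 at 500 mg/L, with a median of −0.09 and 1 of 13 at that p, a lower one.

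The estimates for the matrix genes of the cumulus went different ways, and none passed. Ptx3, which encodes pentraxin 3, a multimer that cross-links the hyaluronan matrix, was the 1 member whose exposed mice and own controls did not overlap. It had 2.50, 2.23, 2.66, 3.18 and 3.30 CPM at 10 mg/L, against 1.33, 1.19, 2.01, 1.18 and 2.07 CPM in controls of experiment 2. All 5 exposed mice were above all 5 controls. The log2 change was 0.83 (SE 0.27; unadjusted p = 0.00606, edgeR Benjamini-Hochberg adjusted p = 0.644) and ran from 0.76 to 0.96 when any 1 mouse was left out. Against the 10 controls of both experiments, which spanned 1.18 to 3.23 CPM with a median of 1.99 CPM, it was 0.50 (SE 0.25; adjusted p = 0.807 by edgeR).

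The mice given 500 mg/L had 2.19, 1.32, 1.85, 1.57 and 3.58 CPM of Ptx3, against 3.02, 3.23, 1.97, 2.14 and 1.50 CPM in controls of experiment 1, with a log2 change of −0.18 (95% interval −0.74 to 0.38). It was −0.46 if replicate 5 at 500 mg/L was left out and −0.04 if control replicate 7 was. The controls of experiment 2 averaged 1.55 ± 0.445 CPM and those of experiment 1 averaged 2.37 ± 0.732 CPM (SD, n = 5 each), a log2 difference of −0.61 (SE 0.27; unadjusted p = 0.0361, edgeR adjusted p = 0.469). The mice given 10 mg/L, at 2.23 to 3.30 CPM, overlapped the controls of experiment 1, at 1.50 to 3.23 CPM. The difference between the effects of the doses was −1.01 (SE 0.38; unadjusted p = 0.0151, edgeR adjusted p = 0.865). Markers of endothelial cells, which line blood vessels, also had positive estimates at 10 mg/L against own controls, none of them called. There 9 of 9 were positive with a median of 0.33, against 50.1% of all tested genes. Their summed level ran from 365 to 535 CPM in mice given 10 mg/L, against 293 to 406 CPM in controls of experiment 2. Replicates 1 and 3 at 10 mg/L, with 2.50 and 2.66 CPM of Ptx3, had endothelial sums of 395 and 365 CPM. Replicate 2 had a sum of 488 CPM and 2.23 CPM of Ptx3. Of the stroma, smooth muscle and pericyte markers, 8 of 9 were positive in that comparison, with a median of 0.15. Luteal cell markers summed to 1137 to 4106 CPM in those exposed mice, against 914 to 2028 CPM in the same controls. Of the 7 luteal markers, 5 were positive and 2 negative there. All 7 were lower in controls of experiment 2 than in those of experiment 1, where the sums ran from 941 to 4914 CPM. Defining markers of endothelial and luteal cells were well above 0. Pecam1 stood at 54.1 CPM and Akr1c18 at 472 CPM in mice given 10 mg/L, against 42.9 and 148 CPM in controls of experiment 2. The part of these cell types in the Ptx3 result was not tested.

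Has2 encodes the synthase that spins out hyaluronan, the backbone of the matrix. Each exposed group had 1 high mouse: the values were 2.64, 0.984, 0.424, 0.307 and 0.972 CPM at 10 mg/L, against 0.680, 0.958, 0.953, 1.29 and 1.00 CPM in controls of experiment 2. The values were 1.22, 2.86, 0.926, 0.442 and 0.973 CPM at 500 mg/L, against 0.850, 0.738, 1.11, 1.12 and 1.45 CPM in controls of experiment 1. Exposed mice lay both above and below their controls at each dose. The log2 change against own controls was 0.13 (95% interval −0.88 to 1.15) at 10 mg/L and −0.53 without replicate 1, and 0.30 (−0.71 to 1.30) at 500 mg/L and −0.25 without replicate 2.

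Tnfaip6 encodes TSG-6, which transfers protein chains from a serum inhibitor onto hyaluronan. Mice given 500 mg/L had 1.77, 1.15, 1.52, 1.46 and 1.44 CPM, against 1.37, 0.810, 1.40, 0.868 and 1.07 CPM in controls of experiment 1. All 5 exposed mice exceeded the median of their controls, and 1 of them, replicate 2, lay within the control range. The log2 change was 0.42 (95% interval −0.08 to 0.92; edgeR unadjusted p = 0.0979, adjusted p = 0.961). The change was −0.12 (95% interval −0.63 to 0.38) at 10 mg/L, with means of 1.02 ± 0.415 CPM in exposed mice and 1.12 ± 0.109 CPM in controls of experiment 2 (SD, n = 5 each). Partners of these genes in the matrix did not pass at either dose: the proteoglycan gene Vcan stood at −0.06 (SE 0.17) at 10 mg/L and 0.34 (SE 0.17) at 500 mg/L, and the hyaluronan receptor gene Cd44 at 0.02 (SE 0.23) and −0.06 (SE 0.23). Of the 14 tested genes of that list, 0 passed, with medians of 0.03 and 0.09.

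Adamts1 encodes a secreted protease that cuts versican, the product of Vcan, in the expanding cumulus. Mice given 500 mg/L had 57.5, 38.0, 42.6, 41.2 and 116 CPM, against 43.6, 44.8, 44.9, 33.5 and 32.9 CPM in controls of experiment 1. Replicates 5 and 1 were above every control, and the other 3 exposed mice were inside the control range. The log2 change of 0.57 (SE 0.24; unadjusted p = 0.0312, edgeR adjusted p = 0.954) was 0.16 without replicate 5, and the change against all controls of 0.32 was −0.08 without it. At 10 mg/L the values were 35.3, 40.1, 51.0, 46.1 and 57.0 CPM, against 53.6, 60.3, 55.7, 41.9 and 61.3 CPM in controls of experiment 2. Of the exposed mice there, 4 of 5 were under the median of their controls, with overlap, and the log2 change was −0.25 (SE 0.24; adjusted p = 0.893 by edgeR). The effect at 500 mg/L minus that at 10 mg/L was 0.81 (SE 0.34, unadjusted p = 0.0284, edgeR adjusted p = 0.891), and 0.41 without replicate 5 at 500 mg/L. The controls differed between experiments as well, with means of 54.6 CPM in experiment 2 and 39.9 CPM in experiment 1. That log2 difference was 0.45 (SE 0.24, unadjusted p = 0.0794, edgeR adjusted p = 0.576). Related proteases did not pass: Adamts4 stood at −0.35 and 0.00, Adamts5 at −0.37 and 0.52 and the cathepsin gene Ctsl at −0.05 and 0.23 at 10 and 500 mg/L against own controls. Of the 14 tested proteases of ovulation 0 passed at either dose, with medians of 0.04 and −0.03.

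Pgr, the gene for the progesterone receptor, which mouse granulosa cells switch on before ovulation and on which Adamts1 induction depends in mice, did not differ detectably. It had 2.18, 2.57, 1.97, 1.19 and 2.01 CPM at 10 mg/L, against 1.25, 1.83, 1.93, 1.01 and 2.70 CPM in controls of experiment 2, and 2.03, 1.96, 1.64, 3.56 and 1.85 CPM at 500 mg/L, against 1.33, 2.65, 2.73, 1.83 and 1.52 CPM in controls of experiment 1. The groups overlapped at both doses. The log2 changes were 0.19 (95% interval −0.42 to 0.79) at 10 mg/L and 0.14 (−0.47 to 0.74) at 500 mg/L, and the second was −0.11 without replicate 4, the highest mouse.

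Edn2 encodes endothelin 2, a peptide that contracts smooth muscle and that mouse granulosa cells make for a few hours around follicle rupture. It was the most variable of the 10 genes, and 1 mouse in each exposed group stood far above the rest. Mice given 500 mg/L had 7.73, 0.309, 0.727, 0.152 and 0.318 CPM, against 0.301, 0.222, 0.295, 0.279 and 0.0388 CPM in controls of experiment 1. Of the exposed mice, 4 of 5 exceeded the median of their controls, and the log2 change was 3.02 (SE 1.08; unadjusted p = 0.0115, edgeR adjusted p = 0.954), but 0.71 without replicate 1. Mice given 10 mg/L had 0.262, 0.657, 5.88, 0.495 and 0.486 CPM, against 0.547, 1.32, 1.50, 0.412 and 1.26 CPM in controls of experiment 2. Here 4 of 5 exposed mice were under the median of their controls and 1 above every control, so the log2 change of 0.61 (95% interval −1.41 to 2.62) was −1.11 without replicate 3. Against all controls, which spanned 0.0388 to 1.50 CPM with a median of 0.357 CPM, the changes were 1.31 at 10 mg/L and −0.40 without replicate 3, and 1.57 at 500 mg/L and −0.74 without replicate 1.

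The control sets of Edn2 did not overlap. Controls of experiment 2 ran from 0.412 to 1.50 CPM and those of experiment 1 from 0.0388 to 0.301 CPM, a log2 difference of 2.16 (SE 1.07; unadjusted p = 0.0584, edgeR adjusted p = 0.532), with 5 of 5 mice of experiment 2 higher. Of all tested genes, 3.1% showed no overlap between the control sets. The estimated counts of Edn2 ran from 1.92 to 350 over the 20 mice. No gene that makes or receives endothelins passed: Ece1, the converting enzyme, stood at 0.01 and 0.14, and the receptor genes Ednra and Ednrb at 0.10 and −0.11 and at −0.05 and 0.06, at 10 and 500 mg/L against own controls. The 6 tested genes of that list ran from −0.74 to 0.36 at 10 mg/L and from −0.28 to 0.29 at 500 mg/L on that scale, and 0 of 6 had an unadjusted p under 0.05 by edgeR there, against 1 of 6 for 10 mg/L over all controls.

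Spread between mice was wide for most of the 10 genes. Within sets, the SD of log2 CPM was 1.46 for Edn2, 0.92 for Ptgs2, 0.78 for Has2, 0.76 for Ereg and 0.39 for Adamts1. Among the 500 tested genes nearest in level these lie at the percentiles 96.8, 89.6, 87.2, 86.2 and 93.4, and for Adamts1 the median SD of those neighbours was 0.14. Pgr and Ptx3 lay near the middle of their neighbours, at 58.6 and 54.6, and Tnfaip6 at 20.2. Areg, with an SD of 1.07, lay at 79.5 among 259 neighbours.

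**Figure D3:**
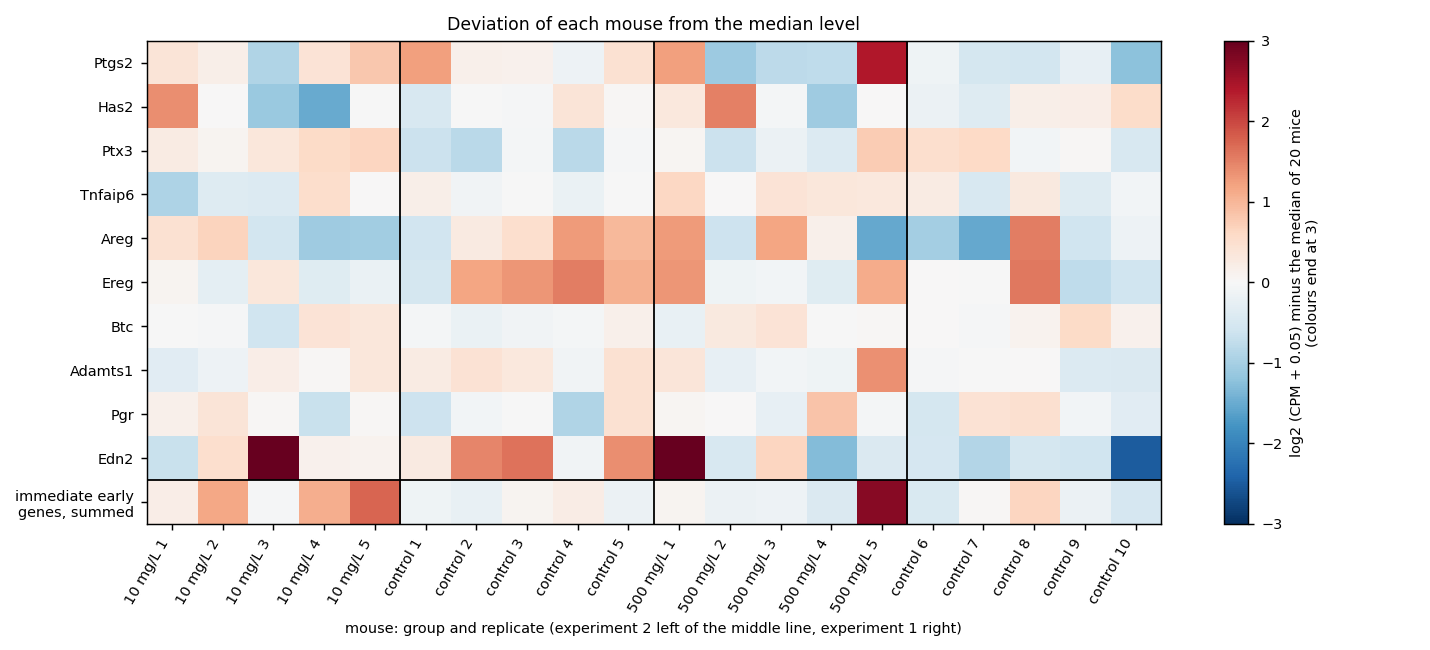
Deviation of each mouse (x axis, by group and replicate) from the median of the 20 mice in log2 (CPM + 0.05), for each of the 10 genes and for the summed CPM of 22 immediate early genes (y axis). Replicate 5 at 500 mg/L is dark in Ptgs2, Adamts1 and the immediate early genes, and the dark Edn2 values belong to replicate 3 at 10 mg/L and replicate 1 at 500 mg/L.

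The mice that were high in 1 gene were seldom high in all. Replicate 5 at 500 mg/L had the highest value of the 20 mice in 3 genes, Ptgs2, Ptx3 and Adamts1, and a count of 0 for Areg. Replicate 1 at 500 mg/L was highest in Tnfaip6 and Edn2, and control replicate 8 in Areg and Ereg. Immediate early genes, transcription factors and regulators induced within minutes of a stimulus, moved with the first of these. Their summed level was 7659 CPM in replicate 5 at 500 mg/L, between 854 and 1223 CPM in the other 4 mice of that group and between 820 and 1806 CPM in controls of experiment 1. In mice given 10 mg/L the sums were 1324, 2587, 1126, 2444 and 3893 CPM, against 994 to 1355 CPM in controls of experiment 2. Fos, a defining member, had 1577 CPM in replicate 5 at 500 mg/L and at most 70.9 CPM in the other 4. None of the 21 tested genes of that list passed in either comparison with own controls. At 10 mg/L 20 of 21 were positive with a median of 0.95, and at 500 mg/L 21 of 21 with a median of 0.93. Of all tested genes, 50.1% and 50.5% were positive. At an unadjusted p under 0.05 by edgeR were 6 of 21 at 10 mg/L and 8 of 21 at 500 mg/L, all higher, against 6.45% and 5.19% of tested genes. Replicates 2, 4 and 5 at 10 mg/L, with the next highest Fos, had 0.632, 0.764 and 1.01 CPM of Ptgs2, inside the range of their controls. Their Adamts1 was 40.1, 46.1 and 57.0 CPM, the first below every control of experiment 2. Their Ptx3 was 2.23, 3.18 and 3.30 CPM. All 5 mice given 10 mg/L exceeded every control of experiment 2 in Ptx3, replicates 1 and 3 with 25.5 and 52.2 CPM of Fos. The part of the immediate early genes in the values of Ptgs2, Ptx3 and Adamts1 was not tested. The highest mice of Edn2, replicate 1 at 500 mg/L and replicate 3 at 10 mg/L, had immediate early sums of 1223 and 1126 CPM. Whether Edn2 went with these genes over the mice was not tested.

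Whether the genes varied together between mice was asked with the mean of each of the 4 sets of mice removed. Of the 45 pairs, 28 had a positive Pearson r, and the median over pairs was 0.0822. 1 pair passed a permutation test after Benjamini-Hochberg adjustment over the 45 pairs: Ptx3 with Adamts1 (r = 0.773, permutation p = 0.00036, adjusted p = 0.0162; Spearman rho = 0.681, permutation p = 0.00179, adjusted p = 0.0805; 20 mice). Without the 2 mice farthest from the median of Ptx3, replicate 5 at 500 mg/L and control replicate 7, r was 0.656 (permutation p = 0.00341, adjusted p = 0.130), so the call rests on those mice. Within experiment 2 it was 0.555 and within experiment 1 it was 0.850, over 10 mice each. Ptgs2 with Adamts1 had r = 0.736 and rho = 0.490 (adjusted permutation p = 0.207 and 0.391), at 0.0850 in experiment 2, 0.904 in experiment 1 and 0.418 without the 2 farthest mice. Ptgs2 with Ptx3 had r = 0.664 and rho = 0.561 (adjusted permutation p = 0.115 and 0.276), at 0.179 in experiment 2, 0.831 in experiment 1 and 0.416 without the 2 farthest mice. The matrix genes were no block: Has2 with Tnfaip6 had r = −0.575 and rho = −0.377 (adjusted permutation p = 0.347 and 0.476), and −0.156 without the 2 farthest mice. The neighbouring ligands Areg and Ereg had r = 0.400 and rho = 0.287 (adjusted permutation p = 0.529 for r).

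**Figure D4:**
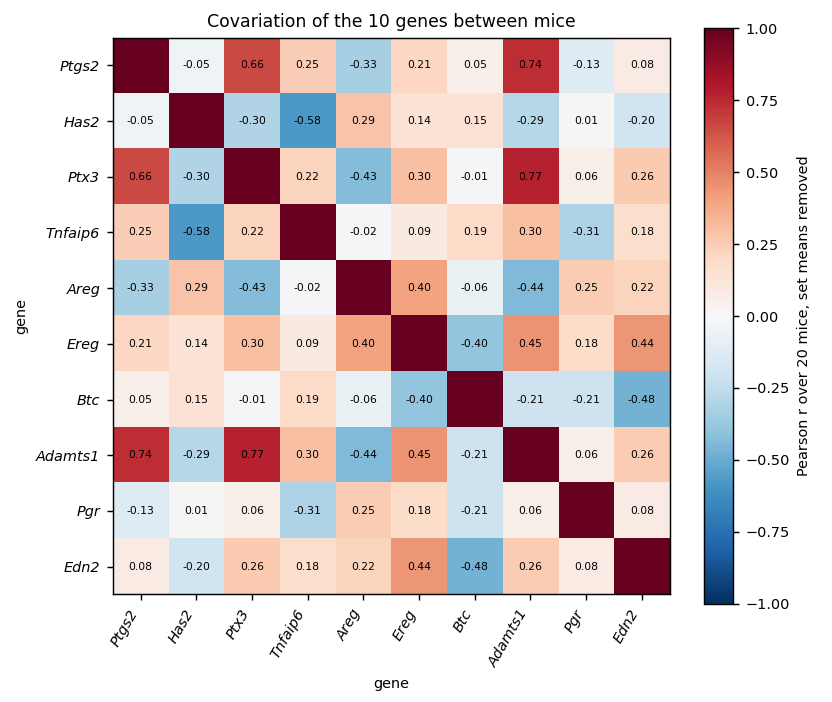
Pearson r of log2 CPM over 20 mice for every pair of the 10 genes, after the 4 set means were removed (both axes list the genes). The block of high values joins Ptgs2, Ptx3 and Adamts1 at 0.66 to 0.77, and the other pairs run from −0.58 to 0.45.

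Among the other tested genes, those whose level was most like that of a member over the 20 mice were ranked by the same r, as a description in which all points share the libraries. Adamts1 had the closest partners, Pnrc1 at r = 0.906, the early response factor gene Egr2 at 0.905 and Cebpd, which encodes a C/EBP family factor, at 0.893. Replicate 5 at 500 mg/L had 116 CPM of Adamts1 and the next of the 20 mice 61.3 CPM. The ranking was not repeated with any mouse left out. Ptx3 had Fbln2 at 0.850, Sema3f at 0.790 and Fam43a at 0.785. Edn2 had Zfp469 at 0.842, Errfi1, the gene for a feedback inhibitor of the EGF receptor, at 0.783 and Ccni at 0.781. Pgr had Cryab at 0.847, Fzd2 at 0.795 and Mypop at 0.784. Tnfaip6, Ereg and Btc had first partners at 0.792 (Pwwp3b), 0.814 (Gm32856) and 0.784 (Sox6).

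Among other genes of the response to luteinizing hormone none was called, and where they differed most, in Runx2 and Star, the control sets differed as well. The receptor gene Lhcgr stood at 0.13 (SE 0.36) at 10 mg/L and 0.32 (SE 0.36) at 500 mg/L against own controls, and Cebpb, which encodes a factor of the ovulatory response, at 0.15 and −0.27. Runx2, a transcription factor gene induced in periovulatory and luteal cells, averaged 28.6 CPM at 10 mg/L and 9.55 CPM in controls of experiment 2 (log2 change 1.58, SE 0.41; unadjusted p = 0.000981, edgeR adjusted p = 0.521, higher in 5 of 5 mice than the control median). It averaged 15.4 CPM at 500 mg/L and 25.9 CPM in controls of experiment 1 (log2 change −0.74, SE 0.40), and the control sets of experiments 2 and 1 differed by −1.44 (SE 0.40). Star, which moves cholesterol into mitochondria for steroid synthesis, had the same order, at 1.79 (SE 0.63) at 10 mg/L, −1.33 (SE 0.62) at 500 mg/L and −1.84 (SE 0.63) between the control sets. Of the 19 tested genes of that list 0 passed at either dose, with medians of 0.10 and 0.04. Of the 10 listed signal genes of oocyte and cumulus, 0 passed. Gdf9 and Bmp15, the oocyte factors that enable cumulus expansion, both stood at −0.14 at 10 mg/L, and at 0.11 and 0.04 at 500 mg/L. The natriuretic peptide receptor gene Npr2 stood at 0.38 (SE 0.11, unadjusted p = 0.00204, edgeR adjusted p = 0.831) at 500 mg/L.

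In the authors' deposited table, all 10 genes were listed and 0 had an adjusted p under 0.05 at either dose against all controls. The authors' deposited table gives Ptx3 a linear fold of 1.43 at 10 mg/L with an adjusted p of 0.219, and Edn2 folds of 1.80 at 10 mg/L and 1.52 at 500 mg/L with adjusted p of 0.354 and 0.531. For Ereg at 10 mg/L the authors' deposited table has −1.47, its sign for a lower value, with an adjusted p of 0.486.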

How the data were processed

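RNA of antral follicles from 20 mice was sequenced as stranded poly(A) libraries on 1 lane for 101 cycles. Per the submitters' processing notes, the tools were Salmon 1.2.0, FastQC 0.11.8, R 4.1.2, limma and edgeR, with the build GRCm39. Which annotation was indexed is not given in the sources used here. Gene values as deposited are the authors' estimated counts per gene, not normalised. Per the file headers, a deposited results table gives signed linear fold changes, read as a score, and adjusted p-values computed by the authors.

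Estimated counts were rounded and analysed in R 4.3.3 with edgeR 4.0.16: filter by expression with the group as factor, TMM scaling, robust quasi-likelihood F-test, two-sided, Benjamini-Hochberg adjustment over 17810 genes. A model of 3 groups gave the comparisons with all controls, and a model of 4 sets, with the experiment read from the column headers, gave those with own controls, the difference between these effects and that between the control sets. SE comes from the F statistic. Replicates are separate mice. CPM use TMM-scaled library sizes and unrounded estimated counts. Log2 CPM for the correlations had a prior count of 2, with 100000 permutations within sets. The scripts were tested on simulated data. Genes of companion lists were named by a mark set beside each list whatever their values; partners were the 3 most alike genes with a mean of at least 1 CPM, for members with the same mean; those of Has2 are not reported here. The members and lists were chosen with earlier results of these data known. Library totals of 39.9 M to 67.5 M leave spread between mice, not counting, as the main error for most members; Areg, at a median of 4.92 counts, has the largest counting error. Chi-square per gene between libraries of a set was at least 20.9 over 40 pairs, so no library is a copy of another of its set. Libraries of different sets were not compared in this way. Alternatives replaced the scaling, the filter, the test (DESeq2 1.42.0, limma 3.58.1 with voom or trend) or the mice used, or added the replicate number as a block. Same-numbered mice of different groups correlated at −0.22 to 0.29 over 15 pairs, and at −0.22 to 0.12 over the 5 pairs within experiment 2. Differently numbered mice were not compared, so these values cannot decide whether the numbers pair the mice. Promoter letters come from the RefSeq table on GRCm38.p6.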

Additional observations from a re-analysis of the deposited data

Results flagged for a closer look

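In 40 sets of 5 mice (10 genes in each of the 4 sets), 8 mice stood apart from the rest of their set by a gap of more than 0.71 of the set's range. For independent, normally distributed values this gap would mark about 1 set in 20, or 2 of 40. CPM need not be distributed so, and the 10 genes share the same mice, so the 8 cannot be weighed against the 2. Edn2 had such mice in both exposed groups: replicate 3 at 10 mg/L had 5.88 CPM, with the next at 0.657 CPM, and replicate 1 at 500 mg/L had 7.73 CPM, with the next at 0.727 CPM. Adamts1 reached 116 CPM in replicate 5 at 500 mg/L, with the next at 57.5 CPM. Pgr had 3.56 CPM in replicate 4 at 500 mg/L, and Has2 had 2.64 CPM in replicate 1 at 10 mg/L. Among controls of experiment 1, replicate 8 was apart in both neighbouring ligands, Areg at 0.373 CPM and Ereg at 3.12 CPM, and replicate 9 in Btc at 3.47 CPM. None of the controls of experiment 2 was apart in any of the 10 genes.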

How the results depend on the processing

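No member passed under any alternative: the lowest adjusted p among 1603 member results was 0.204, 1533 kept their direction and 70 changed sign, 17 of these outside leave-one-out. DESeq2 gave no adjusted p for 10 member results. For all genes, the calls at 10 mg/L against all controls numbered 1, and 0 with no filter on low counts, with limma-voom and with limma-trend, and 8 with DESeq2. At 500 mg/L against all controls they numbered 2, and 0 with limma-voom and limma-trend and 84 with DESeq2. DESeq2 called 31 and 5 genes for the doses against own controls and 15 for the difference of their effects, where edgeR called 0. Ptgs2, Adamts1 and Edn2 at 500 mg/L against own controls had an unadjusted p under 0.05 by edgeR, and with limma-voom and limma-trend 0 members did, and 1 with only the groups compared. Against all controls, where edgeR gave 0 at both doses, the members at that p were 2 at 10 mg/L and 1 at 500 mg/L with DESeq2, and 1 at each dose with only the groups compared and with limma-voom. Between the control sets edgeR called 28, and 11 with no filter, 48 at 1 CPM in at least 5 mice, 9 with only the groups compared and 193 with DESeq2.

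Sign changes outside leave-one-out were few. At 10 mg/L against all controls Btc was 0.00125 at 1 CPM in at least 5 mice, and Has2 was −0.28 with limma-voom and −0.27 with limma-trend. With own controls Has2 was −0.24 and −0.22 and Edn2 −0.33 and −0.23 with those tools. At 500 mg/L against all controls Areg was −0.0943 with limma-voom. The pair Ptx3 and Adamts1 had r = 0.656 without the 2 farthest mice, and then 0 of 45 pairs passed.

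With the replicate number as a block, control replicates 6 to 10 share their number with no exposed mouse and add nothing to the comparison. It then rests on control replicates 1 to 5, all of experiment 2. In the model of 3 groups the calls with the block were 0 at 10 mg/L and 17 at 500 mg/L. The mice given 500 mg/L are of experiment 1, so dose and experiment cannot be told apart in these 17 calls. At 10 mg/L the block gave Ptgs2 −0.22, Has2 −0.23, Btc 0.098 and Edn2 −0.0225 in that model. Against own controls it gave Has2 −0.23 and Edn2 −0.0199. At 500 mg/L it gave Ptgs2 −0.0812, Areg −0.51 and Edn2 −0.37, which are changes over the controls of experiment 2 only. The replicate numbers were not shown to pair the mice. The block could not be fitted for 500 mg/L against own controls or for the difference of effects, where the groups share no numbers. Fitting only the groups compared does not apply to the difference of effects, which uses all 20 mice.

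Leaving out 1 mouse at a time gave 0 to 1 calls at 10 mg/L and 0 to 3 at 500 mg/L against all controls, and 3 to 50 between the control sets. At 10 mg/L against all controls the log2 change ran from −0.59 to 0.32 for Has2, −0.36 to 0.0463 for Tnfaip6, −0.11 to 0.13 for Btc, −0.13 to 0.0431 for Adamts1, −0.0220 to 0.22 for Pgr and −0.40 to 1.60 for Edn2. Against own controls it ran from −0.36 to 0.12 for Ptgs2, −0.53 to 0.38 for Has2, −0.37 to 0.0372 for Tnfaip6 and −1.11 to 0.89 for Edn2. At 500 mg/L against all controls it ran from −0.0781 to 1.15 for Ptgs2, −0.19 to 0.56 for Has2, −0.19 to 0.22 for Ptx3, −0.39 to 0.36 for Areg, −0.0404 to 0.12 for Btc, −0.0775 to 0.45 for Adamts1, −0.0112 to 0.32 for Pgr and −0.74 to 1.86 for Edn2. Against own controls it ran from −0.25 to 0.51 for Has2, −0.0711 to 0.89 for Ereg, −0.15 to 0.0575 for Btc and −0.11 to 0.27 for Pgr. The difference of effects ran from −0.39 to 0.82 for Has2 and −0.30 to 0.0861 for Pgr, and that of the control sets from −0.23 to 0.0356 for Has2 and −0.0718 to 0.12 for Tnfaip6.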
